A study of Homo sapiens with 9 samples.

Results

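The 10 genes described here, BCYRN1, RN7SL1, RN7SL2, RN7SK, RMRP, RPPH1, RNU6ATAC, VTRNA1-1, RNY1 and RNY3, encode small RNAs made by RNA polymerase III (Pol III) and were taken by name from the 57338 genes of the deposited expression table. They were chosen with their values known, because BCYRN1 held a large share of the reads in 2 hPRM2 libraries, so their levels are given as a description without a test. The cells were HEK293T, a line derived from human embryonic kidney, transfected with a plasmid for enhanced green fluorescent protein (EGFP) alone (pcDNA3.1-EGFP, the empty vector) or for EGFP fused to a human protamine, hPRM1 or hPRM2. Protamines are the small basic proteins that take the place of histones in sperm nuclei. Live cells with high EGFP were sorted 3 days after transfection with the TransIT-LT1 reagent, so by the study's methods every group was transiently transfected and carried EGFP, while the markers of the libraries labelled hPRM1, given with the depth, go against that label. Total RNA was sequenced from the 3′ end with a kit primed by oligo-dT (QuantSeq), with 3 libraries for each of the 3 groups. No source used here says that the libraries of a group came from separate cultures, so the p-values below measure the spread between these libraries only.

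Pol III transcribes short structured RNAs that are not translated. RN7SL1 and RN7SL2 encode the 7SL RNA of the signal recognition particle (SRP), RN7SK encodes the 7SK RNA that holds the elongation factor P-TEFb inactive, and RMRP and RPPH1 encode the RNA parts of the ribonucleases MRP and P. BCYRN1 encodes BC200, a primate RNA that descends from the Alu part of 7SL and represses translation, RNU6ATAC the U6atac RNA of the minor spliceosome, VTRNA1-1 a vault RNA, and RNY1 and RNY3 the Y RNAs of the Ro particle. Pol III transcripts typically end in a short run of U and carry no poly(A) tail, so an oligo-dT primer has no designed place to start on them.

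The sequences below are GENCODE 29 transcript sequences (GRCh38), given as the transcribed strand in DNA letters. RNU6ATAC is shown as a member with no long run of A for an oligo-dT primer to pair with, and capitals mark its longest run of A.
RNU6ATAC: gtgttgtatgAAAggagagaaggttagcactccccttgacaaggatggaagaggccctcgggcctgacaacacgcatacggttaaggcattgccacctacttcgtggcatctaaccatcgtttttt
BCYRN1 held a run of 11 A at positions 130 to 140, inside a window from 121 to 158 in which 32 of 38 bases were A (84.2%). The longest run in the other 9 members was 2 to 4 A. The run of T at the very end, the stop signal of Pol III, was 6 bases in RNU6ATAC, 4 in VTRNA1-1, RNY1 and RNY3, 3 in BCYRN1 and 0 to 2 in the others as annotated. A run of at least 11 A was present in 0.524% of 3436 annotated transcripts of 150 to 250 bases. Where the reads began was not measured here, and the part of these runs in the levels was not tested.

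The first 50 bases of RNY1 and RNY3 are shown next because both are Y RNAs whose reads were compared. Capitals mark the longest run of bases that they share, 11 bases.
RNY1 start: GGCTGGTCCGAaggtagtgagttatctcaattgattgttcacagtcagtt
RNY3 start: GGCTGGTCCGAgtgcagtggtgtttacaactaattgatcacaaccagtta
RNY1 and RNY3 were 72.6% identical over their whole length. RN7SL1 and RN7SL2 were identical in 295 of 300 columns over their whole length (98.3%), so reads can be split between them and their levels are uncertain one against the other.

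The letters GTTCGANNC, a form of the B box at which the factor TFIIIC binds inside many Pol III genes, were found on the transcribed strand in BCYRN1 and VTRNA1-1, and on neither strand in the other 8 members. VTRNA1-1 is shown with the match in capitals.
VTRNA1-1: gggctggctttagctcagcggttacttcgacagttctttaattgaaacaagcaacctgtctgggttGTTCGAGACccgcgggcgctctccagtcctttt
The match read GTTCGAGAC in both genes, at positions 79 to 87 of BCYRN1 and 67 to 75 of VTRNA1-1. On either strand the letters were present in 0.862% of 16464 annotated transcripts of 80 to 350 bases.

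In GRCh38, BCYRN1 lies at chr2:47335315-47335514 on the plus strand, inside an intron of the oppositely oriented AC106869.1. RN7SL1 lies at chr14:49586580-49586878 on the plus strand in an intron of RPS29 on the other strand, and RN7SL2 at chr14:49862550-49862849 on the minus strand in an intron of AL627171.2 on the same strand. RN7SK is at chr6:52995621-52995948 (plus), RMRP at chr9:35657754-35658017 (minus), RPPH1 at chr14:20343075-20343407 (minus) and RNU6ATAC at chr9:134164439-134164564 (minus). VTRNA1-1 is at chr5:140711275-140711373 (plus), RNY1 at chr7:148987136-148987248 (minus) and RNY3 at chr7:148983755-148983856 (plus).

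The deposited values are RPKM, in which the divisor for these short genes is only a few bases (3.47 to 8.9 bases for the members under 250 bases), so RPKM is very large for them. Each value was therefore turned back into reads and into reads per 1000000 reads on genes (RPM). Depth on genes, to 3 digits, was 7920000 to 10800000 reads in the empty vector libraries, 4210000 to 5860000 reads in those labelled hPRM1 and 1270000 to 2650000 reads in hPRM2. At 3 reads, the floor used here for a count of 0, this corresponds to 0.278 to 0.379 RPM, 0.512 to 0.713 RPM and 1.13 to 2.36 RPM. hPRM2 replicate 1 stood apart, with 9652 genes above 0 against 14353 and 15633 in the other hPRM2 libraries. PRM2 was present only in hPRM2 libraries, at 71220, 60050 and 36130 RPKM, and PRM1 was at 0 in all 9 libraries, including those labelled hPRM1. The libraries labelled hPRM1 held all 12 blood cell markers of a fixed list at 1 RPKM or more, with a summed level of 2066000 to 2271000 RPKM against 3.50 to 18.5 RPKM in the other 6 libraries. Of 10 HEK293T markers they held none at 1 RPKM or more, where empty vector libraries held 8, 8 and 9 and hPRM2 libraries 7, 8 and 8. The summed level of these markers was 0.306 to 1.45 RPKM, against 174 to 260 RPKM in empty vector and 123 to 185 RPKM in hPRM2 libraries. HBB, HBA1 and HBA2 were the most abundant of the blood markers, while LIN28B, IGF2BP1, PAX2, HOXC10, NEFM and INA were at 0 in every library labelled hPRM1. BEX1, also on the HEK293T list, went the other way, at 0.833, 0.432 and 0 RPKM there and 0 in the other 6 libraries. NEFL was low in empty vector too, at 0, 0.1348 and 1.125 RPKM. The data therefore go against that label as a HEK293T sample, and these libraries also bear library numbers of another series, so condition and batch cannot be told apart in any comparison with them. In these bulk libraries, fewer cells of a type cannot be told apart from less RNA per cell.

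Of the members, 4 overlap a second annotated gene on the same strand, and the reads of the locus fell on one record or the other. For RN7SK all reads lay on the overlapping 7SK record in 8 of 9 libraries, and on its own record in the other. RMRP had 0 reads on its own record in all 9 libraries, and RPPH1 had reads on its own record only in hPRM2 replicate 3 (19 reads, 3.89% of the locus), the rest lying on AL355075.4. AL355075.4 is a record of 638 bases with the type antisense, on the same strand as RPPH1 (333 bases). Whether those reads came from it or from RPPH1 was not measured. RN7SL1 was split most unevenly, with 36.8%, 0% and 0% on its own record in empty vector, 0%, 72.2% and 100% in libraries labelled hPRM1 and 0%, 8.02% and 3.96% in hPRM2, the rest lying on AL139099.4. The levels of these 4 members are therefore given as the sum over both records, a choice made after the values were seen.

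Per length, BCYRN1 was far above the other members in empty vector and hPRM2 cells. Its mean level in empty vector was 57688 ± 9405 RPM per kb (SD, n = 3), followed by RN7SL1 at 367 ± 28.5, RN7SL2 at 180.2 ± 5.84, RN7SK at 175 ± 50.7, RNU6ATAC at 120.4 ± 62.3, RNY1 at 116 ± 65.4, RNY3 at 89.99 ± 54.1, RPPH1 at 32.7 ± 21.7, VTRNA1-1 at 24.9 ± 22.4 and RMRP at 4.96 ± 7.99 RPM per kb. Neighbours from RN7SL2 down to RNY3, and from RPPH1 down to RMRP, differed by less than the larger of their SDs. The length used was that of the own record. For RPPH1 the reads lay mostly on the record of 638 bases, and on that length its level per kb would be lower. In hPRM2 the order began with BCYRN1 at 412670 ± 318820 RPM per kb, RN7SK at 12305 ± 3533, RN7SL1 at 4728 ± 2018 and RN7SL2 at 4176 ± 1441 (SD, n = 3). RN7SK had thus moved from the fourth to the second place, while RN7SL1 and RN7SL2 differed by less than their SDs. In the libraries labelled hPRM1, RN7SL2 led at 142 ± 44.6 RPM per kb and RN7SL1 followed at 80.6 ± 22.7, with RN7SK at 5.22 ± 0.567 and BCYRN1 at 3.94 ± 3.87 (SD, n = 3).

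**Figure D1:**
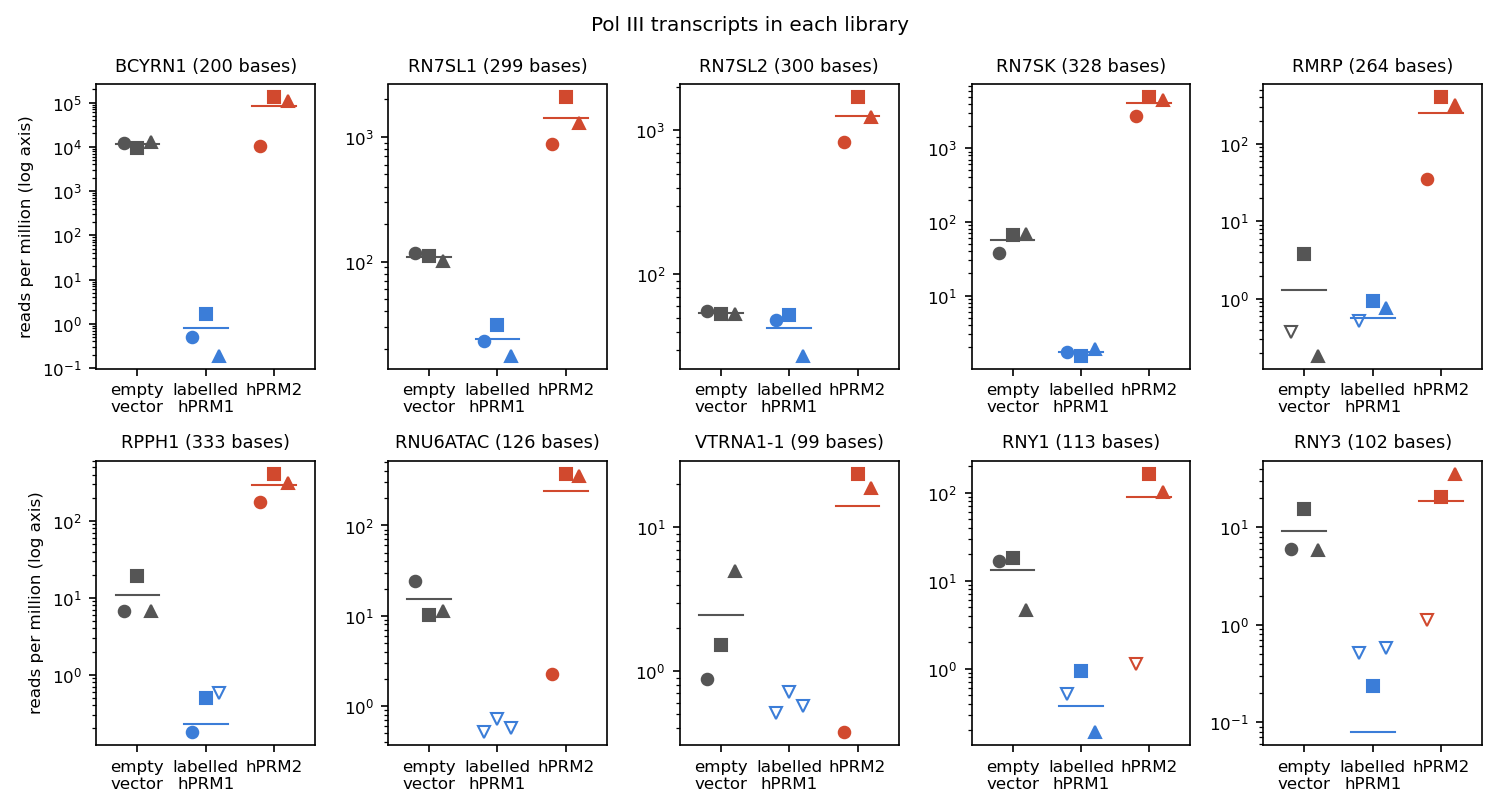
Level of each member in RPM (vertical, log axis) in each library; circles, squares and triangles are replicates 1, 2 and 3, bars are group means, and open downward triangles are libraries with 0 reads drawn at the level of 3 reads. For RN7SL1, RN7SL2, RN7SK, RMRP and RPPH1 all 3 hPRM2 libraries lay above every empty vector library, while for the other members hPRM2 replicate 1 lay inside or below the empty vector range.

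The 7SL RNAs, the scaffold on which the SRP proteins assemble, were higher in every hPRM2 library than in any empty vector library. RN7SL1 stood at 118, 111 and 101 RPM in empty vector, at 23.4, 31.3 and 17.7 RPM in libraries labelled hPRM1 and at 879.7, 2068 and 1293 RPM in hPRM2. RN7SL2 stood at 56.1, 53.1 and 53.0 RPM, at 48.1, 52.3 and 27.3 RPM, and at 826, 1690 and 1242 RPM in the same order. The hPRM2 libraries were thus 8.01-, 18.8- and 11.8-fold of the empty vector mean for RN7SL1 and 15.3-, 31.3- and 23.0-fold for RN7SL2. For RN7SL1 the libraries labelled hPRM1 all lay below empty vector. RN7SL2 was the only member within 2-fold of the empty vector mean in all 3 libraries labelled hPRM1, each of which still lay below the lowest empty vector value.

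RN7SK, which holds P-TEFb in an inactive complex, had the most reads of the members other than BCYRN1 in hPRM2. It stood at 38.3, 65.3 and 68.7 RPM in empty vector (304, 558 and 741 reads) and at 2715, 4879 and 4514 RPM in hPRM2 (7197, 6210 and 7255 reads), which is 47.3-, 84.9- and 78.6-fold of the empty vector mean. The groups did not overlap, and the lowest hPRM2 library was far above the highest empty vector library. The libraries labelled hPRM1 held 10, 6 and 10 reads, 1.71, 1.53 and 1.90 RPM, and lay 33.7-, 37.5- and 30.2-fold below the empty vector mean, with exact 95% Poisson intervals on those reads of 18.3 to 70.3, 17.7 to 98.0 and 16.4 to 63.2.

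RMRP and RPPH1, the catalytic RNAs of ribonucleases MRP and P, had few reads outside hPRM2, RMRP the fewest of all members in empty vector. RMRP had 0, 32 and 2 reads in empty vector, 0, 4 and 4 reads in libraries labelled hPRM1 and 93, 507 and 515 reads in hPRM2. In RPM the hPRM2 libraries held 35.1, 398 and 320 against 0, 3.74 and 0.185 in empty vector, and the fold over the empty vector mean of 1.31 ± 2.11 RPM (SD, n = 3) rests mostly on 1 empty vector library. RMRP was the only member whose empty vector range overlapped that of the libraries labelled hPRM1. RPPH1 stood at 6.75, 19.3 and 6.71 RPM in empty vector and at 177, 409 and 307 RPM in hPRM2, 16.3-, 37.5- and 28.2-fold of the empty vector mean. With 1, 2 and 0 reads in the libraries labelled hPRM1, RPPH1 lay 61.0-fold (11.3 to 2082), 21.9-fold (6.22 to 168) and at least 19.0-fold below that mean, the floor of 3 reads being taken per library.

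BCYRN1, the Alu-derived BC200 RNA, did not behave alike in the 3 hPRM2 libraries. In empty vector it took 96536, 80494 and 140314 reads, or 12181, 9419 and 13012 RPM, which is 1.22%, 0.942% and 1.301% of all reads on genes. In hPRM2 it took 26929, 166013 and 172001 reads, or 10157, 130430 and 107010 RPM, which is 1.02%, 13.0% and 10.7% of all reads on genes. Replicate 1 was therefore inside the empty vector range, at 0.880-fold of the empty vector mean, while replicates 2 and 3 were 11.3- and 9.28-fold of it. The mean over hPRM2 was 82534 ± 63765 RPM against 11538 ± 1881 RPM in empty vector (SD, n = 3), an SD near the size of the mean. BCYRN1 had 3, 7 and 1 reads, 0.512, 1.66 and 0.191 RPM, in the libraries labelled hPRM1. These were 22550-fold (7715 to 109400), 6941-fold (3368 to 17270) and 60310-fold (10820 to 2386000) below the empty vector mean.

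The 4 shortest members followed the same division between hPRM2 libraries. RNU6ATAC, the U6-type RNA that pairs with U4atac and U12-type introns, stood at 24.2, 10.2 and 11.1 RPM in empty vector and at 2.26, 373 and 352 RPM in hPRM2. Replicate 1 was 0.149-fold of the empty vector mean, and replicates 2 and 3 were 24.6- and 23.2-fold of it. No library labelled hPRM1 held a read of RNU6ATAC, which places them at least 29.6-, 21.3- and 26.4-fold below the empty vector mean.

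VTRNA1-1, one of the RNAs bound to the vault particle, had the fewest reads after RMRP in empty vector, 7, 13 and 54, and 1, 30 and 30 reads in hPRM2. Its level was 0.883, 1.52 and 5.01 RPM in empty vector and 0.377, 23.6 and 18.6 RPM in hPRM2. Replicates 2 and 3 lay above all empty vector libraries, by 9.54- and 7.55-fold of their mean, and replicate 1 lay below them, 6.55-fold under the mean with a counting interval of 1.18 to 259. All 3 libraries labelled hPRM1 were at 0 reads, at least 4.82-, 3.46- and 4.30-fold below the empty vector mean.

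RNY1 and RNY3, the Y RNAs that bind the Ro60 protein, were at 0 reads in hPRM2 replicate 1. RNY1 stood at 16.8, 18.0 and 4.64 RPM in empty vector and at 0, 163 and 101 RPM in hPRM2, with replicate 1 at least 11.6-fold below the empty vector mean and the others 12.4- and 7.71-fold above it. RNY3 stood at 6.05, 15.6 and 5.93 RPM in empty vector and at 0, 20.4 and 35.4 RPM in hPRM2, with replicate 1 at least 8.11-fold below the mean and the others 2.22- and 3.86-fold of it. RNY3 thus had the smallest difference of the 10 members in replicates 2 and 3. In the libraries labelled hPRM1 RNY1 had 0, 4 and 1 reads and RNY3 had 0, 1 and 0 reads.

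Arranged by the length of their own records, the members fell into 2 sets that behaved differently in hPRM2 replicate 1, a division noticed after the values were seen. The 5 members of 264 to 333 bases were all above every empty vector library in all 3 hPRM2 libraries, with folds of 8.01 to 47.3 in replicate 1, 18.8 to 304 in replicate 2 and 11.8 to 245 in replicate 3. Summed, they held 219, 253 and 229 RPM in empty vector, 73.4, 86.5 and 47.7 RPM in libraries labelled hPRM1 and 4632, 9445 and 7677 RPM in hPRM2. The 5 members of 99 to 200 bases were all above empty vector in hPRM2 replicates 2 and 3, by 2.22- to 24.6-fold and 3.86- to 23.2-fold. In replicate 1 BCYRN1 was inside the empty vector range and the other 4 below it, with 7 reads in all against 288 to 387 in empty vector. Together the 10 members took 1.25%, 0.972% and 1.33% of all reads on genes in empty vector and 1.48%, 14.1% and 11.5% in hPRM2. Without BCYRN1 the other 9 took 0.0267%, 0.0298% and 0.0256% in empty vector and 0.464%, 1.002% and 0.818% in hPRM2.

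Sums over other genes with 1 annotated transcript also differed between length classes in hPRM2 replicate 1, though few genes carried them. Summed over 2542 such genes of 50 to 120 bases, the level was 25.04, 22.4 and 37.9 RPM in empty vector and 0, 23.4 and 28.4 RPM in hPRM2. Over 1431 genes of 120 to 180 bases, hPRM2 was 0.333-, 1.89- and 1.56-fold of the empty vector mean, and over 1141 genes of 180 to 240 bases 1.92-, 5.97- and 4.36-fold. Over 3028 genes of 240 to 350 bases it was 2.79-, 1.61- and 1.61-fold, and over 8834 genes of 350 to 600 bases 1.32-, 1.07- and 1.10-fold. In the shortest class 12, 14 and 9 genes were above 0 in empty vector and 0, 8 and 7 in hPRM2. From 180 to 240 bases the hPRM2 libraries had 12, 30 and 30 genes above 0. The 5 longer members, at 8.01-fold or more in every hPRM2 library, were above the sums of the length class of their own records. For RPPH1 that class does not apply to most of its reads, which lay on a record of 638 bases, longer than all classes. The 4 shortest were above theirs in replicates 2 and 3. BCYRN1, of 200 bases, was below its class in replicate 1, at 0.880- against 1.92-fold, and above it in replicates 2 and 3. The members were chosen with their values known and the classes were not, so nothing is read from these comparisons. Fragment length was not measured in the values used here, and its part in the members' levels was not tested.

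The fit over all genes gave calls that depend on this spread. In limma on log2(RPKM + 1), with a call at an adjusted p of at most 0.05 and at least 2-fold, 359 of 13126 genes were called in hPRM2 against empty vector, 2.74% of those tested (1.36% higher and 1.37% lower). Of the 10 members, 7 passed the filter on low values with their own record and 1 was called, RN7SL2, with a log2 fold change of 4.47 ± 0.28 (SE). BCYRN1 had 2.19 ± 0.92, RNU6ATAC 2.25 ± 1.92, VTRNA1-1 1.54 ± 1.57, RNY1 -1.49 ± 3.91 and RNY3 -2.59 ± 3.35 (SE), none of them called. The negative values of RNY1 and RNY3 rest on 0 reads in hPRM2 replicate 1 and depend on the pseudocount. RNY1 stood at -2.60 with a pseudocount of 0.1 and at -0.72 with 5, and RNY3 at -3.70 and -1.82. Their mean RPM in hPRM2 was 6.7- and 2.03-fold of the empty vector mean. The overlapping records at the other loci were all called higher, with 3.76 ± 0.32 for AL139099.4 at RN7SL1, 6.13 ± 0.33 for 7SK, 9.19 ± 1.78 for RMRP and 4.80 ± 0.53 for AL355075.4 at RPPH1. By locus, 5 members were higher in hPRM2 with no overlap between groups, where 6.01% of all genes tested were. Because the members were chosen on these values, nothing is read from these shares.

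Without hPRM2 replicate 1, 2257 of 12825 genes were called (17.6%, with 5.30% higher and 12.3% lower). BCYRN1 then stood at 3.37, RNU6ATAC at 4.69, VTRNA1-1 at 3.47, RNY1 at 3.52, RN7SL2 at 4.74, RNY3 at 1.71 and the own record of RN7SL1 at 7.59 on the log2 scale. These values restate the levels of the libraries on which BCYRN1 was chosen and are no test of it. RNY1 and RNY3 had the opposite sign with replicate 1 included. Without replicate 2 or replicate 3, 10 and 15 genes were called. The deposited scaling also moved the median of all genes tested, which stood at -0.72 on the log2 scale in hPRM2, at -0.26 after median-of-ratios rescaling and at -0.16 after quantile normalization. Of all genes called, 49.9% were higher with the deposited scaling, 73.1% after median-of-ratios rescaling and 83.0% after quantile normalization. BCYRN1, the top-ranked gene in both groups, had a difference of 0 under quantile normalization by construction, and 2.75 after median-of-ratios rescaling.

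In the libraries labelled hPRM1, 10241 of 13588 genes were called (75.4%, with 12.9% higher and 62.5% lower). Of the 7 members tested, 5 were lower, BCYRN1 at -14.32 ± 0.71, RNU6ATAC at -11.69 ± 0.35, VTRNA1-1 at -9.09 ± 0.60, RNY1 at -6.97 ± 1.93 and RNY3 at -9.15 ± 1.64 on the log2(RPKM + 1) scale (SE). Genes listed at 0 have no fold on that scale, so these values depend on the pseudocount of 1. RNY1 was no longer called after median-of-ratios rescaling (-5.18) or quantile normalization (-5.35). RN7SL2 changed sign with the scaling: it stood at -0.40 ± 0.26 (SE, not called) as deposited, and was called higher at 1.79 after median-of-ratios rescaling and at 1.52 after quantile normalization. By locus, 9 members were lower than every empty vector library, where 66.4% of all genes tested were, and the exception was RMRP. The median of all genes tested was -1.72 as deposited, 0.07 after median-of-ratios rescaling and -0.30 after quantile normalization, and 17.1%, 53.1% and 44.2% of the genes called were higher.

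The human genome holds many copies of these genes, most of them pseudogenes, whose reads cannot be separated cleanly from those of the parent. The table held 2292 copies and other named genes of these families, of which 660 were RN7SL, 292 RN7SK, 1237 U6, 53 Y RNA, 41 U6atac and 2 vault copies. In hPRM2, 32 of them passed the filter, of which 4 were called higher and 1 lower, all RN7SL copies, against 1.36% and 1.37% of all genes tested. Copies such as RN7SL230P and RN7SL220P, at 0 in all empty vector libraries, passed only through hPRM2, so they had to be higher and nothing is read from the count. RN7SL copies under 600 bases together held 220, 245 and 75 reads in empty vector, 352, 344 and 273 in libraries labelled hPRM1 and 492, 460 and 521 in hPRM2. In RPM this was 27.8, 28.7 and 6.96 in empty vector, 60.1, 81.7 and 52.2 in libraries labelled hPRM1 and 186, 362 and 324 in hPRM2, with no overlap between the groups.

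Among single copies, RN7SL832P, a record of 1756 bases, was called higher in hPRM2 with 309, 280 and 220 reads in empty vector and 427, 781 and 680 in hPRM2. RN7SL202P was present only in replicates 2 and 3 of hPRM2, at 65 and 63 reads, and RN7SL3, another full-length 7SL gene, had 86, 18 and 1 reads in empty vector and 302, 343 and 310 in hPRM2. RN7SL689P had 15 reads in each empty vector library and 0 elsewhere, and was called lower in both comparisons. RNY4, a further Y RNA, had 0, 14 and 28 reads in empty vector, 0 in libraries labelled hPRM1 and 0, 16 and 35 in hPRM2. Of these, RN7SL832P, RN7SL689P and RN7SL3, and above RN7SL230P and RN7SL220P, were picked after their values were seen.

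With the libraries labelled hPRM1, 50 copies were tested, of which 18 were called higher (15 RN7SL, 2 RN7SK and 1 U6 copy) and 2 lower, against 12.9% and 62.5% of all genes tested. Without hPRM1 replicate 1, 2 or 3 the copies called, in either direction, numbered 6, 5 and 5. Each copy called higher rested on 1 to 67 reads per library with a median of 7. Of the 18, 15 were at 0 in all empty vector libraries. These passed the filter only through the libraries in which they are high, so nothing is read from the count. With 1 of those libraries left out they could not pass, since the filter still asked for 3. Nothing is therefore read from the 6, 5 and 5 either. RN7SL172P, for example, picked after its values were seen, had 59, 43 and 62 reads against 0 in empty vector, while RN7SL1 had 137, 132 and 93 reads against 931, 950 and 1085.

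The genes for the proteins that transcribe or bind these RNAs were, with 1 exception, not called in hPRM2. Of 94 such genes in 7 lists, all of which passed the filter, 0 were called higher and 1 lower by limma, against 1.36% and 1.37% of all genes tested. An unadjusted p under 0.05 was found for 23 of the 94 and for 3351 of all 13126 genes, and their median log2 fold change was -0.62 against -0.72 over all genes tested. HEXIM2, which binds 7SK and inhibits P-TEFb, fell by 3.62 ± 0.62 (SE, limma adjusted p = 0.0392), from 12.2, 22.1 and 13.1 RPKM to 0, 0 and 1.34 RPKM. It was not called with a pseudocount of 0.1, without the filter, with the filter at 10 RPKM, or with a replicate block. Nor was it called by a per-gene test on RPKM, after median-of-ratios rescaling, or with any 1 library other than hPRM2 replicate 1 left out. Its relative HEXIM1 stood at 13.4, 14.0 and 5.20 RPKM in empty vector and at 36.5, 74.1 and 45.5 RPKM in hPRM2, a difference of 2.20 ± 0.54 (SE) with no overlap between groups that did not pass the threshold (limma adjusted p = 0.0763). The other 7SK partners LARP7 and MEPCE stood at -0.68 and -1.53 (limma adjusted p = 0.350 and 0.155).

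Among the 37 genes of the transcription machinery, none was called in hPRM2, and 11 were lower with no overlap between groups, where 29.9% of all genes tested were. GTF3C1, the TFIIIC subunit that reads the B box, stood at 359, 377 and 386 RPKM in empty vector and at 240.2, 103 and 125 RPKM in hPRM2, a log2 fold change of -1.35 ± 0.37 (SE, limma adjusted p = 0.0950). POLR3A, the largest Pol III subunit, stood at -0.56, its vertebrate-specific partner POLR3G at -1.33, the initiation factor BRF1 at -0.26 and the repressor MAF1 at -1.28, with limma adjusted p of 0.472, 0.506, 0.890 and 0.323. MAF1 was uneven among the hPRM2 libraries, at 99.1, 10.46 and 42.3 RPKM against 72.3 to 111 RPKM in empty vector.

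The proteins bound to the other members were likewise not called in hPRM2. SRP9 and SRP14, which bind the Alu fold shared by 7SL and BC200, stood at -0.59 and 0.42 on the log2 scale (limma adjusted p = 0.407 and 0.338). SSB, the La protein that binds the U run at the end of new Pol III transcripts, stood at 0.09 (limma adjusted p = 0.874), and RO60, the Y RNA partner, at -1.80 (limma adjusted p = 0.164). POP1, shared by ribonucleases P and MRP, stood at -0.71 (limma adjusted p = 0.428). The list medians ran from -0.36 for the 6 SRP proteins to -0.85 for the machinery, around the -0.72 of all genes tested. Without hPRM2 replicate 1, 18 of the 94 were called, where 17.6% of all genes tested were, 15 lower and 3 higher (TEP1 at 1.71, EIF4A1 at 1.23 and HEXIM1 at 2.42, named after their values were seen). After median-of-ratios rescaling 2 were called, both higher (SART3 at 2.01 and EIF4A1 at 1.69), and HEXIM2 was not.

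**Figure D2:**
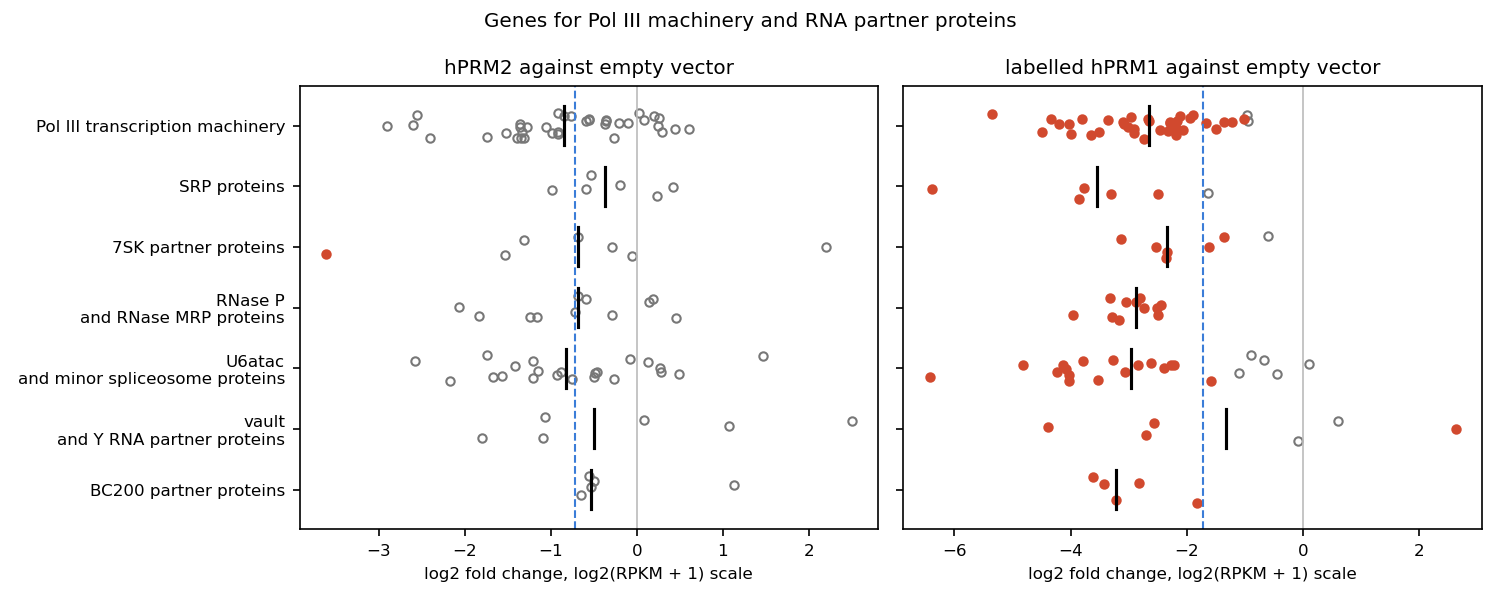
Log2 fold change on the log2(RPKM + 1) scale (horizontal) of the genes of 7 protein lists in hPRM2 (left) and in the libraries labelled hPRM1 (right) against empty vector; filled points were called, open points were not, black bars are list medians and the dashed line is the median of all genes tested. In hPRM2 only HEXIM2 was called, and in the libraries labelled hPRM1 82 of 94 were lower and MVP alone was higher.

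In the libraries labelled hPRM1 82 of the 94 genes were lower and 1 higher, against 62.5% and 12.9% of all genes tested, and their median was -2.72 against -1.72. SRP9 stood at -6.38, SRP14 at -3.77, SSB at -4.39, POLR3K at -4.49, POLR2K at -5.35, GTF3C1 at -3.51 and POP1 at -2.74, all called lower. MVP, the major vault protein, was higher by 2.63 (limma adjusted p = 0.00185), while VTRNA1-1 was at 0 reads in the same libraries. The counts depended on the scaling, with 39 lower and 10 higher after median-of-ratios rescaling and 51 lower and 6 higher after quantile normalization.

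Across all 9 libraries, the genes whose log2(RPKM + 1) was most like that of BCYRN1 among 14900 genes included HES1 (r = 0.995), SOX4 (0.994), SRP14 (0.994) and IARS1 (0.994). Over the 6 empty vector and hPRM2 libraries they were MED11 (r = 0.998), TEP1 (0.995), TLE4 (0.994), H1-10-AS1 (0.994) and C2-AS1 (0.992), among 13125 genes. SRP14 and TEP1 are also members of the protein lists above. Among the other members, log2(RPM + 1) correlated best with that of BCYRN1 over the 6 libraries for RNU6ATAC (r = 0.953) and VTRNA1-1 (0.934). The lowest r was that of RNY3 (0.668). The points of each correlation share library and depth, and these values are descriptions over 6 or 9 libraries. BCYRN1 was chosen for its level in hPRM2 replicates 2 and 3, so the ranking over 6 libraries returns genes high in those libraries. MED11, for example, stood at 1142 and 966 RPKM there. Over 9 libraries the ranking returns genes low in the libraries labelled hPRM1. No shared regulation is read from either ranking.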

How the data were processed

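The authors sequenced 3′ end libraries on a NovaSeq instrument and deposited gene-level RPKM for 9 libraries. The submitters' processing notes name FastQC, Cutadapt, STAR, Salmon and hg38, and the study's methods name the nf-core/rnaseq pipeline; versions and the annotation release were not given in the sources used here. Symbols were found for 56998 of 57338 gene IDs, and lengths came from GENCODE 29, in which 34661 genes had 1 transcript. The RPKM divisor was found to be the transcript length minus a mean fragment length from a normal distribution of 250 ± 25 bases truncated at the transcript length. With it, 90.7% of 1563 values of at most 10 reads in genes under 350 bases fell within 0.05 of a whole read, against 10.03% of 389 with nothing subtracted. Reads, RPM and shares were computed from this divisor.

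Groups were compared with limma 3.58.1 (R 4.3.3; lmFit, eBayes with trend and robust) on log2(RPKM + 1) over genes of at least 1 RPKM in at least 3 of the 6 libraries compared, with Benjamini-Hochberg adjustment; a call needed an adjusted p of at most 0.05 and 2-fold. Python 3.11.15, numpy 2.4.6, pandas 2.3.3, scipy 1.17.1 and matplotlib 3.10.9 served for the rest. The fit was tested on data simulated for the libraries labelled hPRM1 against empty vector, not for hPRM2. A first version, with smaller changes and 1 spread pooled over genes, recovered too few genes, and both were altered, to larger changes and each gene's own spread. That spread was taken from the empty vector libraries, so recovery at the spread of the hPRM2 libraries was not shown. Recovery of the smaller changes was not shown either, so a gene not called in hPRM2 may still differ. Intervals are exact 95% Poisson intervals and floors are 3 reads per library. Both cover counting error only. The upper limit of such an interval at 0 reads is 3.69 reads, so on that limit the folds given as at least would be smaller. The members and lists were chosen with earlier results of these data known. Named were all members, fixed machinery and partner genes, the called genes of each list up to the 2 with the largest change, the 2 most abundant copies of each family and the 5 genes most like BCYRN1. Not every gene of that rule is printed, and some sequences and 1 gene are not reported here. Alternatives covered the pseudocount, filter, scaling, fit, block and single libraries. With 1 library left out the filter still asked for at least 3 libraries. A search of the RefSeq promoter table found none of the members. Replicate numbers did not pair libraries, since the correlations of their deviations were all under 0.1.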

Additional observations from a re-analysis of the deposited data

How the results depend on the processing

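Calls in hPRM2 depended on the setting far more than those in the libraries labelled hPRM1; the cause was not tested. Against 359 genes called in hPRM2, 89 were called with no filter, 167 with at least 10 RPKM, 2125 with all 9 libraries in 1 fit, 57 with a replicate block and 9 with the per-gene test on RPKM. Leaving out 1 library gave 10 to 2257, with 2257, 10 and 15 without hPRM2 replicates 1, 2 and 3 and 17, 41 and 15 without empty vector replicates 1, 2 and 3. Of the 94 protein genes, 1 was called in hPRM2, against 0 with a pseudocount of 0.1 (19 at an unadjusted p under 0.05), no filter (21), at least 10 RPKM (19), the replicate block (19) or the per-gene test (19), 2 after median-of-ratios rescaling, 17 with all 9 libraries and 0 to 18 without 1 library. Of the copies, 5 were called, against 3 with no filter, 9 with all 9 libraries, 2 with the replicate block, 0 with the per-gene test (2 at an unadjusted p under 0.05) and 0 to 11 without 1 library.

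In the libraries labelled hPRM1, 10241 genes were called, against 5837 at 10 RPKM or more, 4514 with the per-gene test and 7422 to 9142 without 1 library. Of the protein genes 83 were called, against 49 after median-of-ratios rescaling, 46 with the per-gene test and 75 to 84 without 1 library. Of the copies 20 were called, against 3 with the per-gene test and 5 to 29 without 1 library. With hPRM1 replicates 1, 2 and 3 left out in turn it was 6, 5 and 5. In either comparison, copies at 0 in all empty vector libraries could not pass the filter without 1 of the other libraries. The counts of copies without such a library are therefore no measure of stability. The replicate block gave 10334 genes, 83 protein genes and 21 copies. Its numbers did not pair the libraries: same-numbered libraries correlated at -0.081 to 0.093, and in each comparison only replicate 2 correlated best with its own number. RN7SL2 changed sign in these libraries under both rescalings, and in hPRM2 RNY1 and RNY3 changed sign without replicate 1, from -1.49 to 3.52 and from -2.59 to 1.71. The pseudocount of 5, the fit with no fold threshold and totals without BCYRN1 moved none of these counts by over 1.5 times. Totals without HBA1, HBA2 and HBB were not run, because these genes have several transcripts and their lengths were not settled. Depth limits hPRM2 most, where 1 read is worth the most.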
